A study of Arabidopsis thaliana with 9 samples.

Results

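Leaves of the Arabidopsis thaliana mutant bio4-1 that had been watered with biotin were compared with leaves of the same mutant given water alone. The comparison took 6 of the 9 arrays of the study, namely the 3 whose titles name the mutant with biotin and the 3 whose titles name the mutant without it. The study hybridised rosette leaf RNA of Col-0 plants to Affymetrix ATH1 arrays, 1-colour arrays that read each transcript with several short probes. In bio4-1, a T-DNA lies in the 5′ UTR of the biotin synthesis gene BIO4, and the genotype was the same on both sides of the comparison. The treated plants received 1 litre of 200 µM D-biotin per tray of 28 plants each week after transfer to soil, and the others received the same volume of water. All plants were 5 weeks old and had 12 h of light a day, and each RNA was a pool of 5 plants. The third group, water-grown Col-0 wild type, also had 3 arrays; its levels are given for some genes, and its arrays entered the fits to estimate the spread. Biotin-watered wild type was not analysed here, so a response that any plant would show to biotin and one that depends on the mutation cannot be told apart. The level of BIO4 was not analysed here, since the annotation used paired no probe set with it.

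Biotin is a vitamin that plants make themselves and attach to a small set of carboxylases. Acetyl-CoA carboxylase makes the building block of fatty acids in the plastid and the cytosol, and 3-methylcrotonyl-CoA carboxylase takes part in leucine breakdown in the mitochondrion. Defence against pathogens, in which salicylic acid acts as a hormone, and cold and drought responses, in which abscisic acid acts, are the other leaf programmes described here.

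The values were the authors' log2 expression levels, and every difference below is biotin minus water in bio4-1 on that scale, where 1 means a 2-fold difference in level. Array medians ranged from 5.95 to 6.07 over the study. A gene was called when its limma p, adjusted by the Benjamini-Hochberg method over all non-control probe sets, was under 0.05. The verbs rose and fell are kept for genes called on the arrays named. The labels number the samples of a group as replicates, each a pool of plants, so a p-value measures the spread between such pools, and 3 arrays a group limited the precision of every value.

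The arrays numbered 1 stood apart on both sides. Of the 15 pairs among the 6 bio4-1 arrays, the 9 that joined an array numbered 1 to another number or to each other correlated at 0.950 to 0.972 across probe sets, and the 6 pairs of arrays 2 and 3 at 0.989 to 0.997. Biotin replicate 1 correlated with wild type replicate 1 at 0.994, and water replicate 1 did so at 0.950. What set water replicate 1 apart from these was not tested. The actin control had a 3′ minus 5′ difference of 3.75 and 4.13 on water and biotin replicate 1. On replicates 2 and 3 it was 2.27 to 2.76. For GAPDH these were 2.24 and 2.61, against 0.58 to 0.88. The ubiquitin control did not separate the arrays in this way, with 1.52 and 1.73 on replicate 1 and 1.66 to 1.72 on replicates 2 and 3. A larger 3′ minus 5′ difference is seen where the 5′ end of a transcript is less well represented in the labelled RNA, and the part of this in the differences on replicate 1 was not tested. Counts are therefore given on all arrays, on replicates 2 and 3, and on replicate 1. For single genes the difference is mostly given on replicates 2 and 3 and on replicate 1, and over all arrays for a few. The test on replicate 1 rests on 1 array a side and takes its spread from arrays 2 and 3, so that the lone arrays are assumed to vary like the others.

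Across all arrays no gene was called (0% of 13355 genes with a named probe set). Before adjustment, the limma p of 550 genes lay below 0.05. Chance alone would give about 668 such genes, so the 550 are not read as a sign of differences. The lowest adjusted p was 0.184. With the arrays numbered 1 set against the others as a block, 7 genes were called (0.0524%). AT1G62290 rose, and AT4G12500, UGT71B6, PDF1.4, AT2G17740, WRKY6 and AT2G15760 fell. All 7 were also called on replicates 2 and 3 and on replicate 1 in the same direction, and for none of the 7 did the difference on replicate 1 differ from that on replicates 2 and 3 by the interaction test. The block fit that chose the 7 used these same arrays, so nothing is read from either count. An interaction that was not called does not show that the differences were equal. With array weights, which give less weight to arrays far from their group, 223 genes rose and 200 fell.

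On replicates 2 and 3, 165 genes rose (1.24%) and 201 fell (1.51%), with differences from −2.72 to 2.40. The median size of these 366 differences was 0.78, and 47 of the rises and 49 of the falls were larger than 1. These counts rested on single arrays. Without water replicate 3 or biotin replicate 3 the count was 0, without water replicate 2 it was 4, without biotin replicate 2 it was 56, and without either wild type array it was 53. In a fit that pairs arrays of the same number, 644 genes were called, 290 upward and 354 downward, and all 366 were among them. The replicate 2 minus replicate 3 differences of the water and biotin arrays correlated at 0.095, which does not establish that pairing. Calls of the paired fit, here and below, are thus not read as support. After each array was centred on its median the split was 316 rises and 209 falls.

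On replicate 1, 1250 genes were higher (9.36%) and 1035 lower (7.75%) with biotin, over a range of −6.83 to 6.94. The difference on replicate 1 departed from that on replicates 2 and 3 in 1940 genes (14.5%) by the limma interaction test. That count was 730 without water replicate 2, 925 without water replicate 3 and 1157 without biotin replicate 3.

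**Figure D1:**
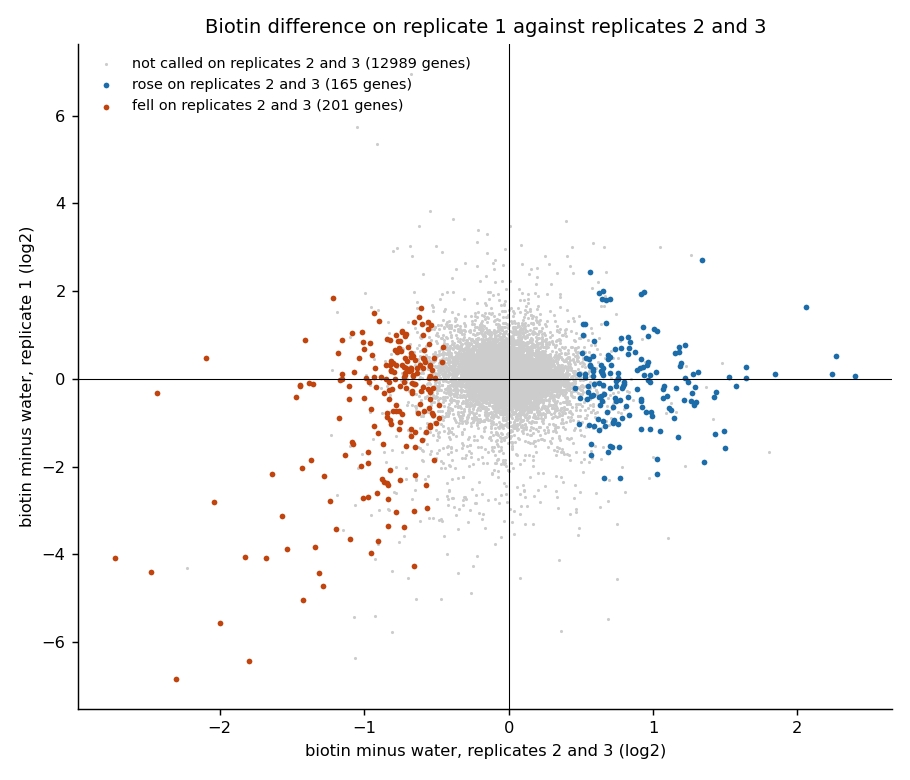
Each point is 1 of 13355 genes, with the biotin minus water difference on replicates 2 and 3 on the horizontal axis and that on replicate 1 on the vertical axis, both in log2 units. Red points are the 201 genes that fell and blue points the 165 that rose on replicates 2 and 3. Both colours lie on both sides of 0 on replicate 1, with 85 of the 201 red points above 0 and 88 of the 165 blue points below it, and the lowest red point is at −6.83. Of all genes, 57.3% lie above 0 on replicate 1 and 41.8% below it.

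The genes that fell and the genes that rose on replicates 2 and 3 were both called more often on replicate 1 than all genes were, in either direction. Of the 201, 82 were called lower on replicate 1 (40.8%), beside 7.75% of all genes, and 33 were called higher (16.4%), beside 9.36%. Of the 165 that rose, 30 were called higher (18.2%) and 39 lower (23.6%), beside the same 9.36% and 7.75%. The median difference on replicate 1 was −0.17 for the 201 and −0.08 for the 165, against 0.05 for all genes. These shares describe the arrays, because both tests took their spread from the same arrays 2 and 3. Interaction was called for 127 of the 201 (63.2%) and for 108 of the 165 (65.5%), beside 14.5% of all genes. The interaction test takes in the difference that chose these genes, so nothing is read from these shares. Seen from replicate 1, of the 1250 genes called higher there, 30 (2.40%) rose and 33 (2.64%) fell on replicates 2 and 3. Of the 1035 called lower, 82 (7.92%) fell and 39 (3.77%) rose. Over all genes 1.24% rose and 1.51% fell, so each of these shares was above that over all genes.

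Among the genes that fell on replicates 2 and 3, 75 of 201 had all 3 biotin arrays below all 3 water arrays, as did 3.63% of all genes. Since the call itself used 4 of those 6 arrays, nothing is read from that share. The 12 with the largest smallest difference over the 3 same-numbered pairs were CCOAMT, AT4G12500, AT1G51890, AT2G17740, AT3G13950, WRKY6, AT4G12490, WRKY53, AT1G26390, GRX480, AT5G38900 and AT1G60590. All 12 were called lower on replicate 1. For 9 of them the difference was larger there by the interaction test, the exceptions being AT4G12500, AT2G17740 and WRKY6. Since the rule that chose the 12 took in replicate 1, their direction there was fixed, and nothing is read from it. No function is given for genes known here only by a locus code, since the annotation used gives none. The digit after AT in a code is the chromosome.

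CCOAMT (AT1G67980) is named for a caffeoyl-CoA O-methyltransferase, an enzyme type of phenylpropanoid metabolism. Its level was 8.77, 7.95 and 7.87 on water replicates 1, 2 and 3, and 4.37, 5.80 and 5.06 with biotin. The lowest water array was thus above the highest biotin array by more than the spread within either group. The gene fell by 2.48 ± 0.28 on replicates 2 and 3 (SE; limma adjusted p = 0.00901), a 5.57-fold difference. On replicate 1 the difference was −4.40 (adjusted p = 0.000399). Wild type arrays read 3.81, 5.07 and 4.39, near the biotin arrays.

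WRKY6 (AT1G62300) and WRKY53 (AT4G23810) encode transcription factors known for roles in leaf senescence and pathogen response. WRKY6 stood at 7.03, 6.31 and 6.25 with water and at 4.86, 4.69 and 4.59 with biotin. Each biotin array was below each water array by over 1, and the wild type arrays read 4.78, 4.69 and 5.10. WRKY6 fell by 1.64 ± 0.14 on replicates 2 and 3 (SE; limma adjusted p = 0.00427), and over all arrays with the block it fell by 1.82 ± 0.19 (adjusted p = 0.0426). On replicate 1 WRKY6 differed by −2.17. WRKY53 stood at 9.70, 7.98 and 7.84 with water and at 5.62, 6.15 and 6.31 with biotin. Water replicate 1 was the highest of these by far, and without regard to it the groups still did not overlap. WRKY53 fell by 1.68 ± 0.18 on replicates 2 and 3 (adjusted p = 0.00873 by limma) and was 4.08 lower on replicate 1, a larger difference there (interaction adjusted p = 0.00303). Its wild type arrays read 5.37, 7.46 and 6.89, so on replicates 2 and 3 the biotin arrays were also below wild type.

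GRX480 (AT1G28480) encodes a glutaredoxin induced by salicylic acid. It read 8.64, 7.40 and 7.01 with water and 4.76, 5.98 and 5.36 with biotin, with wild type at 5.24, 5.89 and 5.37. Biotin and wild type arrays overlapped, and all lay below every water array. GRX480 fell by 1.54 ± 0.25 on replicates 2 and 3 (SE; limma adjusted p = 0.0242) and was 3.87 lower on replicate 1 (interaction adjusted p = 0.0115).

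AT4G12500 had the largest fall on replicates 2 and 3, and AT4G12490, the code before it on chromosome 4, had the largest fall on replicate 1. AT4G12500 read 7.03, 6.32 and 7.36 with water and 2.95, 4.29 and 3.95 with biotin, with wild type between 3.30 and 3.42. The 3 biotin arrays lay at least 2 units below the 3 water arrays, and biotin replicates 2 and 3 stayed above all 3 wild type arrays. It fell by 2.72 ± 0.30 on replicates 2 and 3 (SE; limma adjusted p = 0.0088) and differed by −4.08 on replicate 1. AT4G12490 read 10.85, 8.45 and 9.43 with water, 4.02, 6.83 and 6.45 with biotin, and 4.12, 4.50 and 4.48 in wild type. Biotin replicate 1 matched the wild type level, whereas biotin replicates 2 and 3 lay between wild type and the water arrays. AT4G12490 fell by 2.30 ± 0.29 on replicates 2 and 3 (adjusted p = 0.0125 by limma), with −6.83 on replicate 1 (interaction adjusted p = 0.00153).

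AT2G17740 and AT2G15760 had water arrays close together. AT2G17740 read 7.19, 7.21 and 7.35 with water and 4.38, 5.29 and 5.19 with biotin. It fell by 2.04 ± 0.15 on replicates 2 and 3 (SE; limma adjusted p = 0.00303), and was the 1 gene called over all other arrays when biotin replicate 1 was left out. Its difference on replicate 1 was −2.81. AT2G15760 read 6.60, 6.71 and 6.62 with water and 5.86, 5.90 and 5.87 with biotin, and wild type read 5.91, 5.81 and 5.72. The arrays of each group lay close together, and the difference over all arrays was −0.77 ± 0.08 (SE). AT2G15760 differed by −0.78 on replicates 2 and 3 and by −0.74 on replicate 1, with limma adjusted p of 0.0118 and 0.00912.

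Other genes of the 12 were set apart by water replicate 1. AT1G26390 read 9.70 there, against 5.63 and 5.51 on water replicates 2 and 3 and 3.27 to 4.12 with biotin. AT1G51890 read 9.73, against 6.78 and 6.37, and 4.17 to 4.71 with biotin. AT5G38900 read 9.30, against 5.83 and 5.61, and 4.38 to 4.56 with biotin. In all 3 genes the biotin arrays were close together and the water arrays were not. They fell by 1.80, 2.00 and 1.29 on replicates 2 and 3 and differed by −6.42, −5.56 and −4.73 on replicate 1, with interaction adjusted p of 0.00106, 0.0015 and 0.000792 by limma. AT1G60590, which fell by 1.57 ± 0.22 (SE) on replicates 2 and 3, had biotin arrays at 3.95, 4.26 and 4.24 and wild type arrays at 3.51, 6.37 and 6.59. Wild type replicates 2 and 3 were thus above every water array of numbers 2 and 3 in the mutant, which read 5.45 and 6.19.

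Among the genes that rose on replicates 2 and 3, 33 of 165 had all 3 biotin arrays above all 3 water arrays, as did 5.08% of all genes. As with the falls, nothing is read from that share. The 12 leading ones by the same rule were AT1G62290, COR15A, AT3G45160, AT1G16850, AT5G57760, AT1G12010, AT3G11690, AT2G42320, AT3G47510, AT4G17180, AT1G21790 and AT1G06980. The rule took in replicate 1 here too, so their direction there was fixed. Of these, 11 were called higher on replicate 1, AT2G42320 being the exception at 0.71 (limma adjusted p = 0.062). Interaction was called for 3, COR15A, AT5G57760 and AT1G06980, each with the larger difference on replicate 1.

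AT1G62290 read 4.55, 5.34 and 5.20 with water, 6.17, 7.08 and 7.58 with biotin and 6.90, 7.71 and 7.97 in wild type. Replicate 1 was the lowest array of each group, and the biotin arrays lay between the other groups for every number. The gene rose by 2.06 ± 0.18 on replicates 2 and 3 (SE; limma adjusted p = 0.00427), a 4.16-fold difference, with 1.63 on replicate 1 (adjusted p = 0.00424).

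COR15A (AT2G42540) encodes a chloroplast protein made in the cold that protects membranes during freezing. Its level was 9.98, 11.37 and 10.84 with water, and 12.68, 12.40 and 12.49 with biotin. Wild type read 12.10, 12.10 and 12.35, between the other groups but near the biotin arrays. COR15A rose by 1.34 ± 0.18 on replicates 2 and 3 (SE; limma adjusted p = 0.0129) and was 2.70 higher on replicate 1 (interaction adjusted p = 0.0235).

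AT3G45160 and AT4G17180 had the most even rises. AT3G45160 read 8.19, 8.25 and 8.21 with water and 9.16, 9.15 and 9.24 with biotin, and its differences on replicates 2 and 3 and on replicate 1 were 0.96 and 0.97. AT4G17180 read 6.09, 6.17 and 6.34 with water and 6.78, 6.93 and 7.06 with biotin, with differences of 0.74 and 0.69. Neither was called over all arrays (limma adjusted p = 0.292 and 0.232). AT5G57760 read 7.68, 7.64 and 7.73 with biotin, above both the water arrays (5.70 to 6.80) and the wild type arrays (6.22 to 6.61). On replicates 2 and 3 its water arrays, at 6.80 and 6.70, were also above the wild type arrays.

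**Figure D2:**
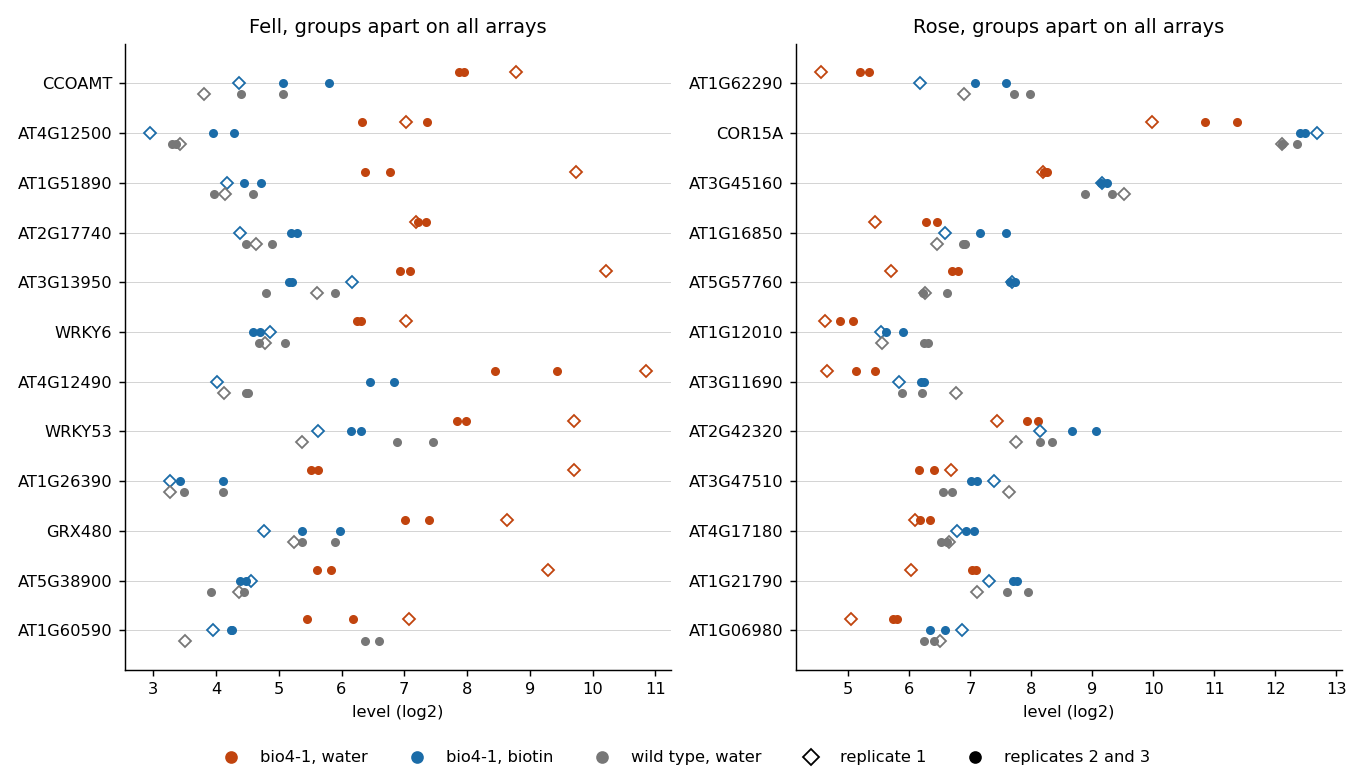
Log2 level of 24 genes on every array, with 12 that fell (left) and 12 that rose (right) on replicates 2 and 3 and whose 3 biotin and 3 water arrays of bio4-1 do not overlap. Red marks water-grown bio4-1, blue biotin-watered bio4-1 and grey water-grown wild type, with open diamonds for replicate 1 and filled circles for replicates 2 and 3. For AT1G26390 and AT5G38900, water replicate 1 stands far above water replicates 2 and 3.

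A second group of genes changed one way on replicates 2 and 3 and lay the other way on replicate 1. The 5 rises with the largest opposite difference were those of SKU5, AT2G37130, AT3G54400, EXO and BGLU16, and the 5 falls were those of ASPGB1, AT3G46450, AT1G67360, AT1G08180 and AT5G53420. They were chosen for that contrast, so their number carries no information. All 10 were called on replicate 1 in the opposite direction, and interaction was called for all 10.

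SKU5 (AT4G12420), a cell wall glycoprotein gene with a role in directional root growth, read 9.81, 9.67 and 9.73 with water and 7.56, 10.38 and 10.56 with biotin. The 3 water arrays hardly differed, and biotin replicate 1 alone lay below them. SKU5 rose by 0.77 ± 0.13 on replicates 2 and 3 (SE; limma adjusted p = 0.0285) and differed by −2.26 on replicate 1 (interaction adjusted p = 0.000523). Wild type replicate 1 was also low, at 7.32, against 9.56 and 9.89 on wild type replicates 2 and 3.

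EXO (AT4G08950), a cell expansion gene induced by brassinosteroids, read 6.70, 9.47 and 8.86 with water and 4.80, 10.51 and 10.53 with biotin. In wild type it read 4.28, 5.98 and 6.66. Replicate 1 was lowest in each group, and on replicates 2 and 3 the order was wild type, water and then biotin. EXO rose by 1.36 ± 0.25 there (SE; limma adjusted p = 0.0344) and differed by −1.90 on replicate 1 (interaction adjusted p = 0.0032).

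ASPGB1 (AT3G16150), an asparaginase gene that releases ammonium from asparagine, read 6.47, 7.08 and 7.17 with water and 8.30, 6.27 and 5.56 with biotin. It fell by 1.21 ± 0.21 on replicates 2 and 3 (SE; limma adjusted p = 0.0296) and was 1.83 higher on replicate 1 (interaction adjusted p = 0.00223). Wild type read 8.73, 6.52 and 6.33, so replicate 1 was high with biotin and in wild type but not with water.

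**Figure D3:**
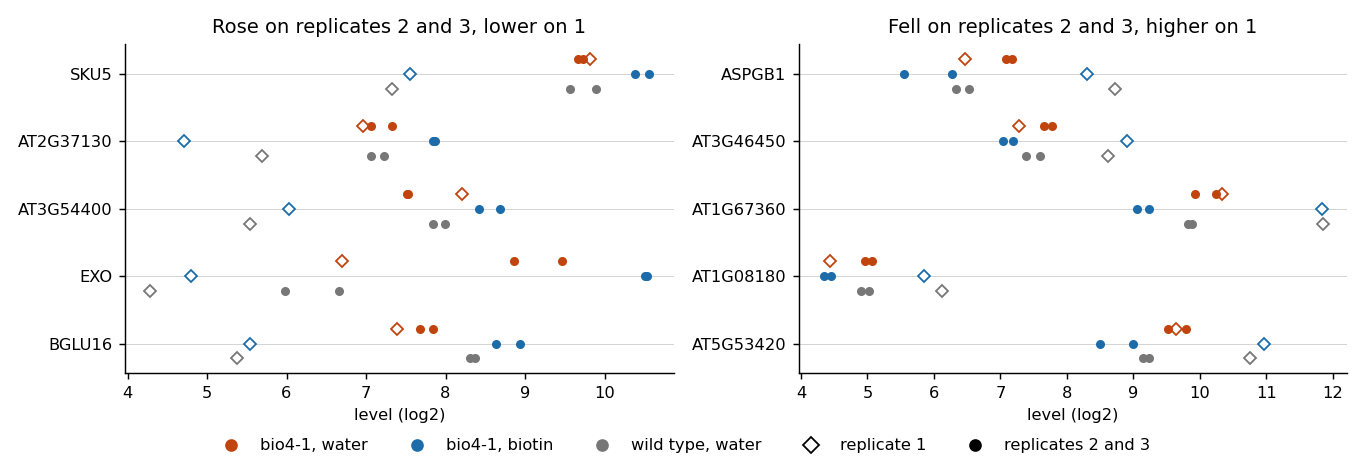
Log2 level on every array of the 5 genes that rose on replicates 2 and 3 and were lower on replicate 1 (left) and the 5 that fell and were higher on replicate 1 (right). Colours mark the groups and open diamonds replicate 1. For SKU5 the blue diamond lies at 7.56 while the blue circles lie at 10.38 and 10.56.

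Several of the largest changes on replicates 2 and 3 had a small difference on replicate 1 that was not called. XTH33 (AT1G10550), of the family of enzymes that cut and rejoin xyloglucan in the cell wall, read 3.99, 4.98 and 4.40 with water and 4.05, 6.65 and 7.53 with biotin. Biotin replicate 1 lay among the water arrays and near the wild type arrays, which read 3.86 to 4.07. The rise was 2.40 ± 0.29 on replicates 2 and 3 (SE; limma adjusted p = 0.0114), a 5.28-fold difference, against 0.06 on replicate 1 (interaction adjusted p = 0.0199). EXLA1 (AT3G45970), an expansin-like gene, read 4.99, 7.29 and 6.81 with water and 5.10, 9.30 and 9.29 with biotin. It rose by 2.24 ± 0.16 on replicates 2 and 3 (adjusted p = 0.00303 by limma) and was only 0.12 higher on replicate 1, where both arrays read lower than the others of their group.

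NRT2.5 (AT1G12940), a high-affinity nitrate transporter gene known to be induced by nitrogen starvation, read 7.89, 8.57 and 8.62 with water and 7.55, 6.95 and 5.37 with biotin. The biotin arrays were all below the water arrays, but biotin replicates 2 and 3 differed from each other by more than biotin replicate 1 differed from water replicate 1. NRT2.5 fell by 2.44 ± 0.44 on replicates 2 and 3 (SE; limma adjusted p = 0.0303) and differed by −0.33 on replicate 1 (interaction adjusted p = 0.104). Its wild type arrays read 7.69, 5.80 and 5.39. It was the 1 measured gene of a nitrate list of 14.

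AT2G15020 read 8.69, 5.88 and 6.68 with water, 9.16, 4.21 and 4.17 with biotin, and 9.48, 7.54 and 7.54 in wild type. It fell by 2.09 ± 0.23 on replicates 2 and 3 (SE; limma adjusted p = 0.00873) and was 0.46 higher on replicate 1. BZIP61 (AT3G58120), a transcription factor gene, read 5.30, 6.98 and 6.87 with water and 3.72, 8.53 and 8.32 with biotin, a rise of 1.50 ± 0.11 (SE) on replicates 2 and 3. Unlike these genes it was called in the opposite direction on replicate 1, at −1.58 (limma adjusted p = 0.000671; interaction adjusted p = 0.000383). AT5G05960 read 6.90, 5.27 and 5.32 with water and 7.02, 7.09 and 7.20 with biotin. In AT5G05960 the biotin arrays hardly differed and water replicate 1 lay with them, and the wild type arrays, at 7.11 to 7.82, were above all water arrays. It rose by 1.84 ± 0.10 on replicates 2 and 3 (adjusted p = 0.00159 by limma), the lowest adjusted p among the 10 largest rises.

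The differences on replicate 1 were the largest of the comparison, and the genes named for them were chosen after the data were seen. The 12 largest falls there were those of AT4G12490, AT1G26390, AT2G44240, AT3G28510, AT5G03350, AT1G51890, AT1G66100, CHI, AT1G68620, AT1G26380, AT3G01830 and AT5G52390, from −6.83 to −5.01. AT4G12490, AT1G26390, AT1G51890 and AT1G26380 also fell on replicates 2 and 3. The paired fit added AT3G28510 and AT1G68620, which were lower there, and AT1G66100, which was higher. CHI (AT2G43570), here a putative chitinase gene, read 11.54, 7.34 and 6.76 with water and 6.11, 5.59 and 6.38 with biotin, a difference of −1.07 on replicates 2 and 3 (limma adjusted p = 0.318). In AT3G28510, water replicate 1 read 8.76 and stood apart from water replicates 2 and 3, at 3.86 and 3.51. AT5G03350 had both arrays numbered 1 apart from the rest, with 12.24, 9.89 and 9.44 on the water arrays and 6.49, 9.70 and 10.34 with biotin. In AT1G66100 the biotin array stood apart. That gene read 10.23, 9.77 and 10.38 with water and 4.75, 10.64 and 10.88 with biotin, and wild type replicate 1 was also low, at 4.26 against 10.88 and 11.20.

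The 12 largest rises on replicate 1 ranged from 3.11 to 6.94, and 5 of them belong to a list of anthocyanin synthesis genes that was written after they were seen. They were DFR, AT4G14090, UF3GT, AT5MAT and CHIL. The other 7 were HIS1-3, AT5G23750, AT5G15190, BETA-VPE, AT4G00670, AT1G57590 and AT1G61930. None of the 12 was called on replicates 2 and 3, where their differences ranged from −1.14 to 0.40. The paired fit called AT4G14090, UF3GT, AT5MAT, HIS1-3 and BETA-VPE there, all lower. DFR (AT5G42800), dihydroflavonol reductase, which commits flavonoids to anthocyanins, read 5.25, 10.37 and 8.55 with water and 12.19, 9.02 and 8.53 with biotin. Water replicate 1 was the lowest and biotin replicate 1 the highest of the 6 arrays, and wild type replicate 1, at 11.94, was above wild type replicates 2 and 3 at 7.49 and 7.01. DFR differed by 6.94 on replicate 1 and by −0.68 ± 0.51 (SE) on replicates 2 and 3 (limma adjusted p = 0.000774 and 0.583; interaction adjusted p = 0.00188).

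UF3GT (AT5G54060) and AT5MAT (AT3G29590), enzymes that add a sugar and a malonyl group to anthocyanins, had the same arrangement. UF3GT read 6.13, 8.54 and 7.03 with water and 11.87, 7.19 and 6.27 with biotin. AT5MAT read 4.80, 7.43 and 6.26 with water and 10.16, 6.23 and 5.64 with biotin. In both, biotin replicate 1 was highest and water replicate 1 lowest. UGT78D2 (AT5G17050), a flavonoid 3-O-glucosyltransferase gene, was 2.99 higher on replicate 1. Of the 18 genes of that list 6 were measured. All 6 were higher on replicate 1, by 2.99 to 6.94, and none was called on replicates 2 and 3. Their median difference was 5.55 on replicate 1 and −0.84 on replicates 2 and 3. As the list was written after the largest rises on replicate 1 were seen, nothing is read from its sign there. With the same-numbered arrays paired, 4 of the 6 were called on replicates 2 and 3, all downward, beside 354 of all 13355 genes. The pairing is not established there and the list came from these data, so nothing is read from that count either.

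**Figure D4:**
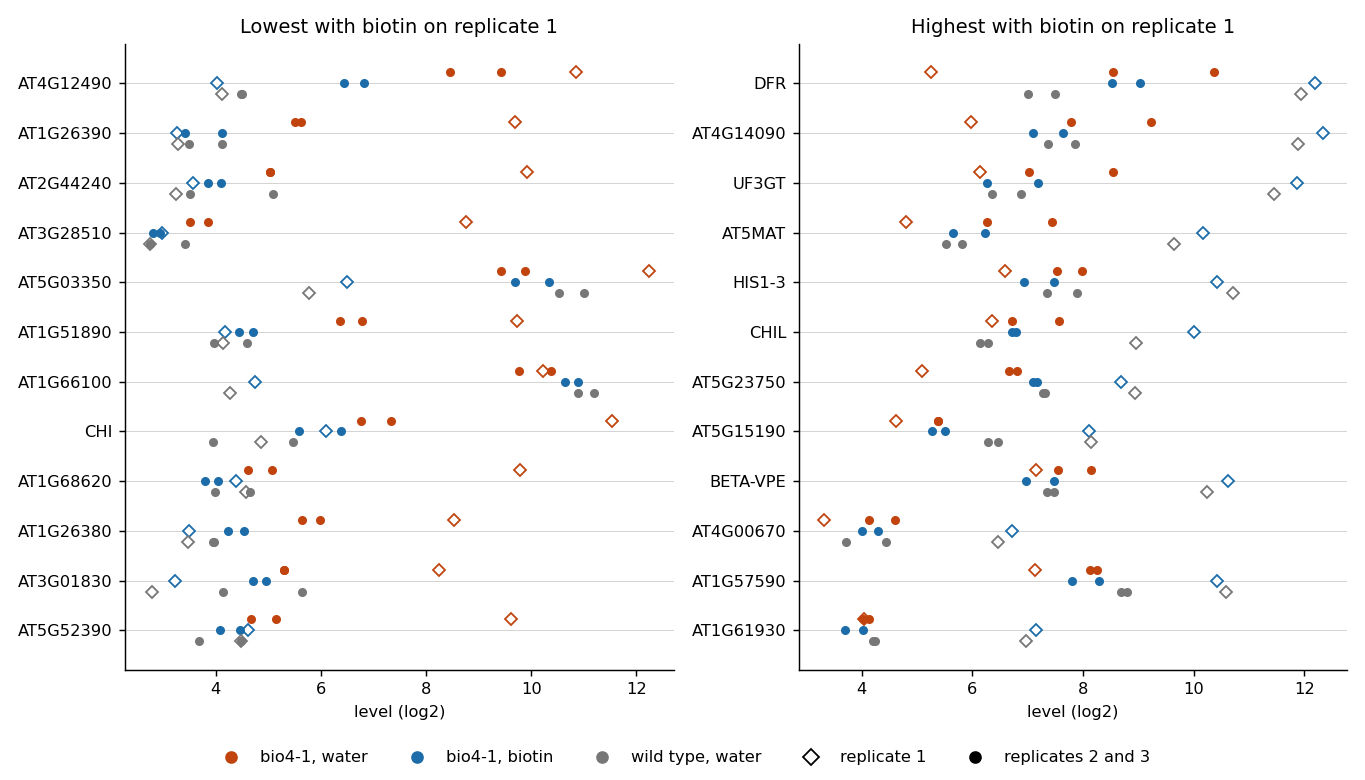
Log2 level on every array of the 12 genes lowest (left) and the 12 highest (right) with biotin on replicate 1. Colours mark the groups and open diamonds replicate 1. For DFR the red diamond lies at 5.25 and the blue and grey diamonds at 12.19 and 11.94, while the circles of all groups lie between 7.01 and 10.37.

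Gene lists are described by their counts and medians, beside medians over all genes of 0.03 on all arrays, 0.01 on replicates 2 and 3 and 0.05 on replicate 1. The probe annotation limited them, since 51 of the 282 genes written for the lists had a probe set that named them alone. The salicylic acid list had 3 measured genes of 25, GRX480, WRKY53 and SAG101, a gene of the EDS1 complex, with medians of −2.32 on all arrays, −1.54 on replicates 2 and 3 and −3.87 on replicate 1. GRX480 and WRKY53 fell on replicates 2 and 3, beside 1.51% of all genes, while SAG101 read 7.31, 6.34 and 6.33 with water and 6.18, 6.40 and 6.33 with biotin. SAG101 was called lower on replicate 1 (−1.12) and not on replicates 2 and 3 (interaction adjusted p = 0.015 by limma).

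Of 3 measured immune receptor and kinase genes, BIK1 (AT2G39660), a kinase that acts below pattern receptors, was the 1 that fell on replicates 2 and 3, beside 1.51% of all genes. It read 8.52, 7.64 and 7.80 with water and 6.96, 7.16 and 6.98 with biotin, and wild type read 6.87 to 7.08. BIK1 fell by 0.65 ± 0.11 (SE; limma adjusted p = 0.028) and was 1.56 lower on replicate 1. EFR, the receptor of a bacterial elongation factor, differed by −0.11 and −0.50, neither called. AT4G08850, the third, differed by −0.49 on replicates 2 and 3 and was called there in the paired fit alone (limma adjusted p = 0.0332). On replicate 1 AT4G08850 differed by −1.24.

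The jasmonate and ethylene defence list divided. Of its 7 measured genes, PDF1.4, ORA47 and OSM34 fell on replicates 2 and 3 and none rose, beside 1.51% and 1.24% of all genes, and its median was 0.15 there and −1.78 on replicate 1. PDF1.4 (AT1G19610), named for a plant defensin, read 5.98, 5.99 and 6.22 with water and 4.14, 4.96 and 4.52 with biotin. OSM34 (AT4G11650), an osmotin-like gene, read 6.53, 4.73 and 4.83 with water and 3.10, 3.69 and 3.48 with biotin. Both had water and biotin arrays that did not overlap. PDF1.4 fell by 1.37 ± 0.17 and OSM34 fell by 1.19 ± 0.11 on replicates 2 and 3 (SE; limma adjusted p = 0.012 and 0.00529). On replicate 1 PDF1.4 differed by −1.85 and OSM34 by −3.43. PDF1.2 (AT5G44420), the defensin gene commonly used as a jasmonate marker, read 7.55, 8.68 and 8.37 with water and 5.77, 9.12 and 9.94 with biotin. PDF1.2 differed by 1.00 on replicates 2 and 3 (limma adjusted p = 0.121, or 0.0479 with the arrays paired) and by −1.78 on replicate 1 (adjusted p = 0.021). PDF1.2b, a near copy whose signal may not be separable from it, differed by 0.70 and −2.32. THI2.2, a thionin gene, differed by 0.71 on replicates 2 and 3 and was called in the paired fit alone (adjusted p = 0.00941 by limma). ORA47 (AT1G74930), a factor of jasmonate synthesis, fell by 1.47 ± 0.25 (SE) on replicates 2 and 3, to 6.58 and 6.52 from 7.75 and 8.28, and its wild type arrays read 9.50 and 8.79. On replicate 1 ORA47 differed by −0.41.

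Of the 6 measured WRKY genes, WRKY6 and WRKY53 fell on replicates 2 and 3 and none rose, beside 1.51% and 1.24% of all genes, with a median of −0.57. WRKY47 differed by −0.78 (limma adjusted p = 0.059, or 0.0196 with the arrays paired) and WRKY20 by 0.01. On replicate 1 WRKY6, WRKY47 and WRKY53 were called lower, beside 7.75% of all genes. The leaf senescence list shares WRKY6 and WRKY53, and its other measured genes, SAG29 and SAG101, were not called on replicates 2 and 3. SAG29 differed by 0.06 and SAG101 by 0.04 on replicates 2 and 3, and by 0.85 and −1.12 on replicate 1, called higher and lower there.

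All 5 measured genes of the abscisic acid, cold and drought list were called higher on replicate 1, beside 9.36% of all genes, with a median of 2.70. COR15A and COR15B rose on replicates 2 and 3, beside 1.24% of all genes, and the median there was 0.92. COR15B (AT2G42530), the neighbour and close relative of COR15A, read 9.39, 11.53 and 11.15 with water and 11.32, 12.28 and 12.24 with biotin. As the pair is similar in sequence, probes could report both, which was not tested. COR15B rose by 0.92 ± 0.14 on replicates 2 and 3 (SE; limma adjusted p = 0.0179) and was 1.92 higher on replicate 1. COR47 and LTI30, dehydrin genes, read 9.73, 11.82 and 11.34 and 6.53, 9.14 and 7.91 with water, and 12.16, 12.40 and 12.11 and 9.53, 9.64 and 9.50 with biotin. In both, the biotin arrays lay within a narrow range above all water arrays, although neither was called on replicates 2 and 3 (limma adjusted p = 0.0927 and 0.187). With the arrays paired, COR47 was called there (adjusted p = 0.0427). HIS1-3, a linker histone gene induced by drought, went with the others on replicate 1 at 3.83 but differed by −0.54 on replicates 2 and 3 (limma adjusted p = 0.331, or 0.0236 with the arrays paired).

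The measured genes of the biotin list encode 1 enzyme, and their differences were small. MCCA (AT1G03090) and MCCB (AT4G34030) encode the biotin-carrying and the other subunit of 3-methylcrotonyl-CoA carboxylase, and were the 2 measured genes of 14 on the biotin list. MCCA read 6.95, 7.52 and 7.40 with water and 7.16, 7.68 and 7.64 with biotin, and MCCB read 8.68, 8.52 and 8.67 with water and 8.75, 8.93 and 8.87 with biotin. Every same-numbered pair was higher with biotin, by as little as 0.16 for MCCA and 0.06 for MCCB. The differences over all arrays were 0.20 ± 0.21 and 0.22 ± 0.10 (SE; limma adjusted p = 1 for both). Neither was called on replicates 2 and 3 or on replicate 1, which does not show that their levels were equal.

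Leucine and branched-chain amino acid breakdown had 10 measured genes of 16, with medians of 0.13 on all arrays and 0.01 on replicates 2 and 3. None was called on replicates 2 and 3, where 1.24% of all genes rose and 1.51% fell, so nothing is read from that. With the arrays paired, AT5G09300 was called there, at −0.69 (limma adjusted p = 0.0101). IVD (AT3G45300), isovaleryl-CoA dehydrogenase, the step before 3-methylcrotonyl-CoA carboxylase, read 7.58, 7.66 and 7.87 with water and 8.35, 7.91 and 7.87 with biotin. It was 0.77 higher on replicate 1 (limma adjusted p = 0.0136) and 0.12 higher on replicates 2 and 3 (adjusted p = 0.652). All 10 were higher on replicate 1, by 0.06 to 0.77, as were 57.3% of all genes. Of 6 measured genes of fatty acid synthesis none was called on replicates 2 and 3, with a median of 0.24, and nothing is read from that count either. With the arrays paired, AT5G10160 was called there, at 0.56 (limma adjusted p = 0.0224). FaTA (AT3G25110), an acyl-ACP thioesterase gene, read 5.12, 5.00 and 5.14 with water and 5.95, 5.43 and 5.43 with biotin, and differed by 0.36 ± 0.10 (SE) on replicates 2 and 3 (limma adjusted p = 0.11).

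Cell wall loosening genes of the expansin and xyloglucan hydrolase families were measured for 27 of 67 members. XTH33, EXLA1, EXLA2 and EXPA16 rose on replicates 2 and 3 and none fell, beside 1.24% of all genes that rose. The family median was 0.19 there. EXLA2 (AT4G38400) read 4.33, 5.41 and 5.02 with water and 4.44, 6.72 and 6.27 with biotin, and EXPA16 (AT3G55500) read 4.12, 4.78 and 4.72 with water and 4.71, 5.92 and 5.88 with biotin. None of the 4 was called on replicate 1, where they differed by 0.06 to 0.59. Other members were called on replicate 1, 3 higher and 4 lower of 27, beside 9.36% and 7.75% of all genes, so that the higher ones are near the share over all genes. In the paired fit XTH16 was also called on replicates 2 and 3, at 0.64 (adjusted p = 0.036 by limma). EXPA8 read 8.91, 8.22 and 8.98 with water and 5.48, 8.30 and 8.20 with biotin, so that biotin replicate 1 alone was low. EXLB1 was 2.15 higher on replicate 1.

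Of 47 measured UDP-glycosyltransferase genes, UGT85A4 rose and UGT71B6, UGT87A2, UGT74D1 and UGT84A3 fell on replicates 2 and 3, beside 1.24% and 1.51% of all genes, with a family median of −0.04. The single rise is near the share over all genes. In the paired fit UGT73B5, UGT71B1 and UGT78D2 were called as well, all lower. UGT71B6 (AT3G21780), an enzyme that glucosylates abscisic acid, read 7.11, 6.38 and 6.28 with water and 5.62, 5.34 and 5.17 with biotin, and 5.57, 5.20 and 4.97 in wild type. Biotin and wild type arrays of the same number were close together. It fell by 1.08 ± 0.12 on replicates 2 and 3 (SE; limma adjusted p = 0.00901) and differed by −1.49 on replicate 1. UGT84A3 fell by 0.54 there but was 1.24 higher on replicate 1, and UGT73D1, at 6.98 on water replicate 1 and 3.41 to 3.73 on all other bio4-1 arrays, was 3.25 lower on replicate 1 only.

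The cytochrome P450 family had 26 measured members by name, of which CYP59 and CYP71 carry the prefix but encode cyclophilins. CYP71B36, CYP78A9 and CYP71B24 fell on replicates 2 and 3 and none rose, beside 1.51% and 1.24% of all genes. The paired fit also called CYP71B26, which was lower. CYP71B36 (AT3G26320) read 7.11, 5.82 and 6.11 with water and 4.33, 4.70 and 4.76 with biotin, and fell by 1.24 ± 0.12 (SE; limma adjusted p = 0.00551). On replicate 1 CYP71B36 differed by −2.78. CYP78A9 (AT3G61880), known for a part in fruit and organ size, fell by 1.15 ± 0.14 on replicates 2 and 3 but was 0.88 higher on replicate 1 (interaction adjusted p = 0.00203). Of 13 glutathione transferase genes GSTU16 fell on replicates 2 and 3, by 0.59 ± 0.11 (SE), beside 1.51% of all genes. It too was higher on replicate 1, by 1.01.

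**Figure D5:**
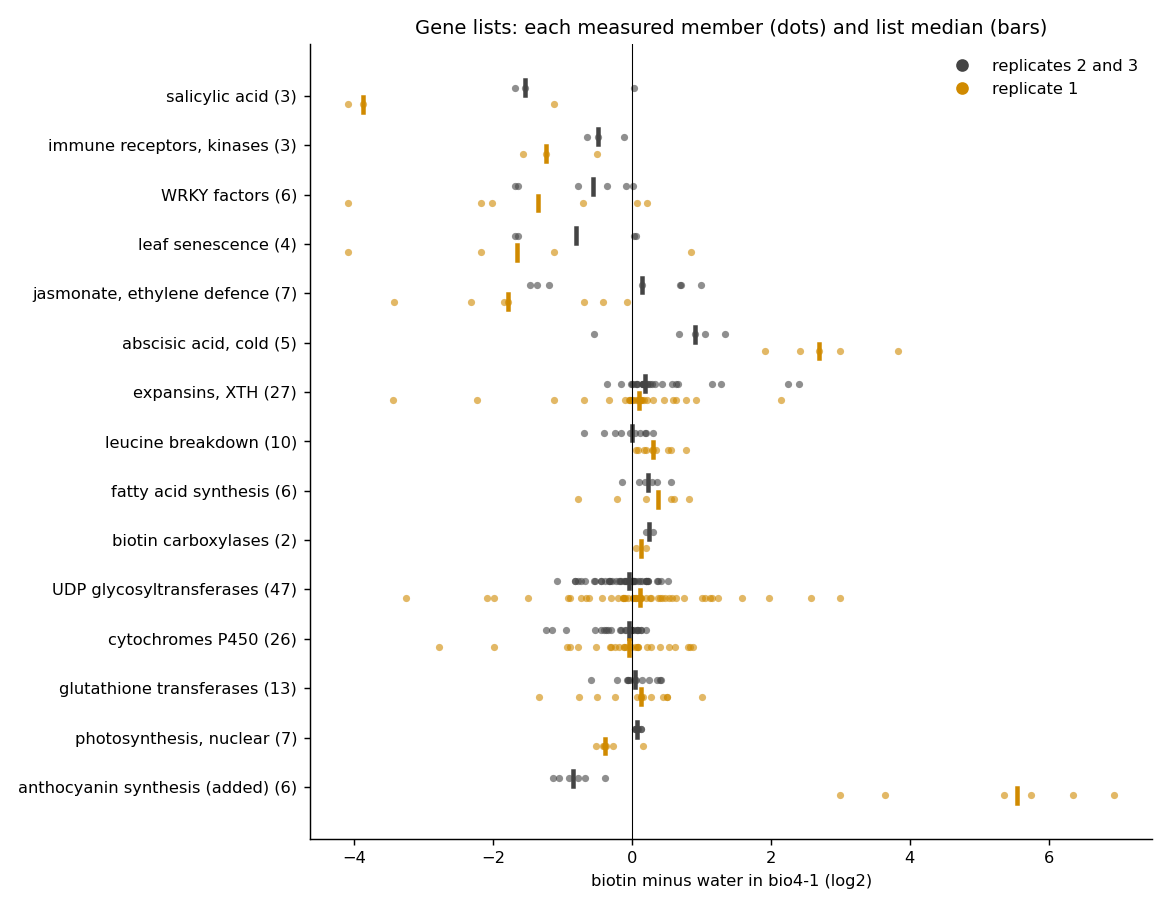
Biotin minus water differences (log2) of every measured member of 15 gene groups, with the number measured in brackets. Grey dots are replicates 2 and 3 and orange dots replicate 1, and bars mark medians. Salicylic acid genes lie at or below 0 with the exception of SAG101 at 0.04, and the anthocyanin group, added after the data were seen, lies below 0 on replicates 2 and 3 and between 2.99 and 6.94 on replicate 1.

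Other groups had few calls on replicates 2 and 3, where 1.24% of all genes rose and 1.51% fell. None of 11 measured auxin response genes was called on replicates 2 and 3, which is near those shares and is not read as a result. IAA29 (AT4G32280), an auxin-inducible repressor gene, read 4.41, 5.31 and 5.87 with water and 6.08, 6.38 and 6.08 with biotin, a difference of 0.64 there (limma adjusted p = 0.145). GH3.3, which conjugates auxin to amino acids, read 6.78 on water replicate 1 and 3.37 to 4.42 on the other bio4-1 arrays. The 7 measured nuclear photosynthesis genes, such as LHCB4.1 with 13.21 to 13.65 on the 6 arrays, differed by 0.05 to 0.14 on replicates 2 and 3 and by −0.52 to 0.16 on replicate 1. STZ, a zinc finger gene of oxidative stress, differed by −0.96 on replicates 2 and 3 (limma adjusted p = 0.241, or 0.0409 with the arrays paired) and by −0.76 on replicate 1, which was not called. GI, a clock gene whose level depends on the hour, read 9.27 to 10.10 with water and 9.68 to 9.90 with biotin.

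Of the markers of leaf cell types and of other organs, 1 of 11 and 1 of 9 had a probe set named for it. FMA, which marks guard cells, differed by −0.35 on replicates 2 and 3 and by 0.29 on replicate 1, neither called. PYK10, which marks roots, read 2.93 to 3.23 on all 6 arrays, near the bottom of the range. In whole leaves a change in the share of a cell type and a change per cell cannot be told apart.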

How the data were processed

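Leaf RNA of 3 groups of 3 samples was measured on ATH1 arrays. Per the submitters' processing notes, the deposited values are log2 expression summaries made with RMA (its version is not given in the sources used here), in a table of 22810 probe sets that held 0 columns of another sample. The 64 control probe sets were left out and 22746 were tested. The probe annotation named 1 gene for 13513 probe sets, several for 503 and none for 8730. The probe set that names a gene alone and has the highest mean over the 9 arrays stood for it, which gave 13355 genes, of which 13285 matched the RefSeq table of TAIR10.1, used for names and chromosomes only.

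Differences between groups were fitted by lmFit and eBayes of limma 3.58.1 under R 4.3.3, and p-values were adjusted by the Benjamini-Hochberg method over the probe sets tested. The fits were all 9 arrays by group, the 6 arrays numbered 2 and 3 by group, and group by whether an array is numbered 1, which has 3 residual degrees of freedom and gave the replicate 1 and interaction tests. Tables and plots were made in Python 3.11.15 with pandas 2.3.3 and matplotlib 3.10.9. The code was tested on simulated data.

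The labels give the groups the same replicate numbers. Deviations from the group means of same-numbered water and biotin arrays correlated at 0.34, 0.27 and 0.32 across probe sets, each above 0.1. A fit that pairs the samples by number is therefore given beside the main fits, which do not pair them. Arrays of unlike number correlated at 0.36 (water 3 with biotin 2) and 0.17 (water 2 with biotin 3), and at −0.38 to −0.24 where 1 of them was numbered 1, so within replicates 2 and 3 the numbers do not separate the pairs. On replicates 2 and 3 alone the value was 0.095, below 0.1, so these values do not establish the pairing that the paired fit assumes there.

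The comparison, the gene lists and the families were chosen with earlier results of these data known. Named genes are those called on all arrays or with the block, the 12 rises and 12 falls called on replicates 2 and 3 whose groups do not overlap, ranked by the smallest same-numbered difference, the 5 with the largest opposite difference on replicate 1 each way, the 10 largest each way on replicates 2 and 3, and up to 4 called members of each list, or up to 2 where none was called. The 12 largest differences each way on replicate 1 and the anthocyanin list were added after the data were seen. Of 13 families named by symbol, 6 had fewer than 3 measured members, and MYB, cysteine-rich receptor kinase, ribosomal protein and heat shock protein genes had none. Alternatives were a replicate block, the arrays numbered 1 as a block, median centring, quantile normalization, filters on dim probe sets (mean above log2 6, or above the 30th percentile), a variance trend, array weights, a fit of the 2 bio4-1 groups alone, adjustment over gene probe sets only, an adjusted p of 0.1 and leaving out each array.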

Additional observations from a re-analysis of the deposited data

How the results depend on the processing

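With the replicate number as a block (paired fit), 0 genes were called on all arrays, and 644 on replicates 2 and 3 in place of 366. On all arrays 7 were called with the arrays numbered 1 as a block, 423 with array weights, and 0 to 1 with an array left out. On replicates 2 and 3 a fit of the 2 bio4-1 groups alone called 53, an adjusted p of 0.1 gave 723, and leaving out an array gave 0 to 56. Interaction calls, 1940 in the fit given, ranged from 730 to 1694 with an array left out, and calls on replicate 1, 2285 in all, from 1579 to 2077. The cause of these shifts was not tested, beyond fewer arrays entering the fit. Of 61 genes named on replicates 2 and 3, all kept their direction under every alternative that kept the gene and all kept their call under the replicate block, but other settings ended calls: 41 lost theirs without a wild type array or in the fit of 2 groups, 44 without biotin replicate 2, 57 without water replicate 2, and all 61 without water or biotin replicate 3. Over all arrays, array weights turned the sign of AT2G21640 (0.10), LHCB4.1 (0.0002), PSAN (0.084) and UGT84A3 (−0.44). Leaving out an array gave differences over all arrays of −0.35 to 0.27 for AT2G21640, −0.69 to 2.18 for EXO, −0.44 to 0.042 for FMA, −0.14 to 0.27 for GI, −0.71 to 0.32 for GSTU16, −0.18 to 0.037 for LHCB4.1, −0.024 to 0.28 for NAC014, −0.22 to 0.12 for PSAN and −0.46 to 0.34 for UGT84A3, each range crossing 0. Detection calls were not used here, so levels near the bottom of the range may be background.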
